A study of Homo sapiens with 33 samples.

Results

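The 10 HT29 libraries treated at the lowest dose of 4 herbal extracts were compared between the 2 sets into which their sample codes fall. They were chosen by label alone, as the libraries at 20 µg/mL whose codes begin with 15 or 14, and make up 10 of the 33 libraries of the series. HT29 is an established human colorectal adenocarcinoma line, and RNA was sequenced 24 h after treatment. Set 15 held Palmul-tang at 20 µg/mL (n = 3) and Sibjeondaebo-tang at 20 µg/mL (n = 3). Set 14 held Sagunja-tang at 20 µg/mL (n = 2) and Samul-tang at 20 µg/mL (n = 2), each with replicates 2 and 3 only among these samples. The same extracts at 100 and 500 µg/mL, with 6 libraries of set 15 and 4 of set 14 at each dose, and 3 vehicle libraries were used to set the scale. The labels call the preparations ethanol extracts, and the protocol gives 70% ethanol. Vehicle is 0.1% DMSO in the sample labels, but the series text states a different percentage, and the files do not settle it. All titles place the libraries in batch E, and the labels do not say what the first number of a sample code stands for. Each set holds its own formulas, so code set and formula cannot be told apart. The labels do not say whether replicates were grown as separate cultures. The p-values below therefore describe only how these libraries vary, and that variation may be technical.

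The 4 extracts come from formulas of traditional East Asian medicine. Palmul-tang unites the herbs of Sagunja-tang with those of Samul-tang, and Sibjeondaebo-tang is Palmul-tang with more herbs. HT29 cells keep features of colon epithelium, such as keratins of simple epithelium, junctional cadherin and the brush border protein villin. Bulk RNA sequencing reads the mean content of a culture, so a difference between libraries can reflect the cells, the RNA or the library made of it, and in such samples fewer cells of a type and less RNA per cell cannot be told apart.

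Total counts ran from 34809942 to 42625110 in set 15 and from 40892218 to 41628427 in set 14 at the low dose, against 31071774 to 35626385 in vehicle. The summed level of 14 epithelial markers was 13000 to 13300 CPM in set 15 (CPM, a count scaled to library size) and 13200 to 13600 CPM in set 14, carried mainly by the keratin genes KRT8 and KRT18. Of this list CDX1, CDH17, CDX2 and CEACAM5 were low, from 0.592 CPM of CDX1 to 6.56 CPM of CEACAM5. The other markers had 26.3 CPM or more in every low-dose library. Fibroblast markers summed to 2.39 to 3.46 CPM in set 15 and 2.79 to 3.4 CPM in set 14, with COL1A2 and PDGFRA at 0 in all 10. Endothelial markers summed to 23.4 to 28.4 CPM in set 15 and 24.7 to 26.8 CPM in set 14, most of it ENG, with EMCN and KDR at 0. Immune cell markers summed to 1390 to 1580 CPM in set 15 and 1380 to 1510 CPM in set 14, nearly all of it lysozyme (LYZ), while the T cell gene CD3D and the B cell gene MS4A1 were at 0. The summed levels of all 4 marker lists overlapped between the sets. No pair of low-dose libraries was a duplicate: chi-square per degree of freedom ran from 3.49 to 26.36 over all pairs, above the value of about 1 that sampling noise alone gives.

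Between Palmul-tang and Sibjeondaebo-tang libraries on one side and Sagunja-tang and Samul-tang libraries on the other, no gene passed the test at 20 µg/mL. Of 17432 genes tested with edgeR's quasi-likelihood test, 0 passed an adjusted p of 0.05 (0% called), and 727 had an unadjusted p under 0.05 (4.17%), 390 higher in set 15 (2.24%) and 337 lower (1.93%). DESeq2 also called 0, with 489 at an unadjusted p under 0.05. Without the filter on low counts, where no gene kept a spread of its own, edgeR called 120, of which 118 were among the 17432. In 217 genes (1.24%) no library of one set overlapped the other set, 92 of them higher in set 15 (0.528%) and 125 lower (0.717%). The 33 gene lists examined (pathways, stress responses, cell types) held 585 tested genes, of which 0 were called.

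The distance between 2 libraries was taken as the SD over genes of their difference in log2 CPM. Its median was similar across sets and within the sets pooled, but libraries of set 14 lay closer together than those of set 15. Over 11001 genes whose average log2 CPM was at least 2, the 24 pairs across sets ran from 0.0998 to 0.136 with a median of 0.119. The 13 pairs of different extracts within a set ran from 0.0982 to 0.13 with a median of 0.116, and the 8 pairs of the same extract from 0.0982 to 0.142 with a median of 0.118. These values pool both sets. Pairs within set 14 ran from 0.0982 to 0.108, and pairs within set 15 from 0.112 to 0.142. Mean distance across sets exceeded that within sets by 0.00148, and an exact one-sided permutation test over 210 assignments of libraries to sets gave p = 0.257. The test shuffles single libraries, although libraries of a set share extracts. The difference in mean distance was -0.00165 over all genes tested (exact p = 0.724) and -0.0022 without RN7SL1 and RN7SL2 (exact p = 0.781). For 5 of the 10 libraries the nearest other library was of the same set, and for 2 of these of the same extract. Those 5 were every library of set 14 and, of set 15, only Palmul-tang replicate 2. Low-dose libraries lay further from vehicle: 0.162 to 0.298 in set 15 with a median of 0.214, and 0.176 to 0.286 in set 14 with a median of 0.223. Vehicle libraries lay 0.127 to 0.175 from each other.

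**Figure D1:**
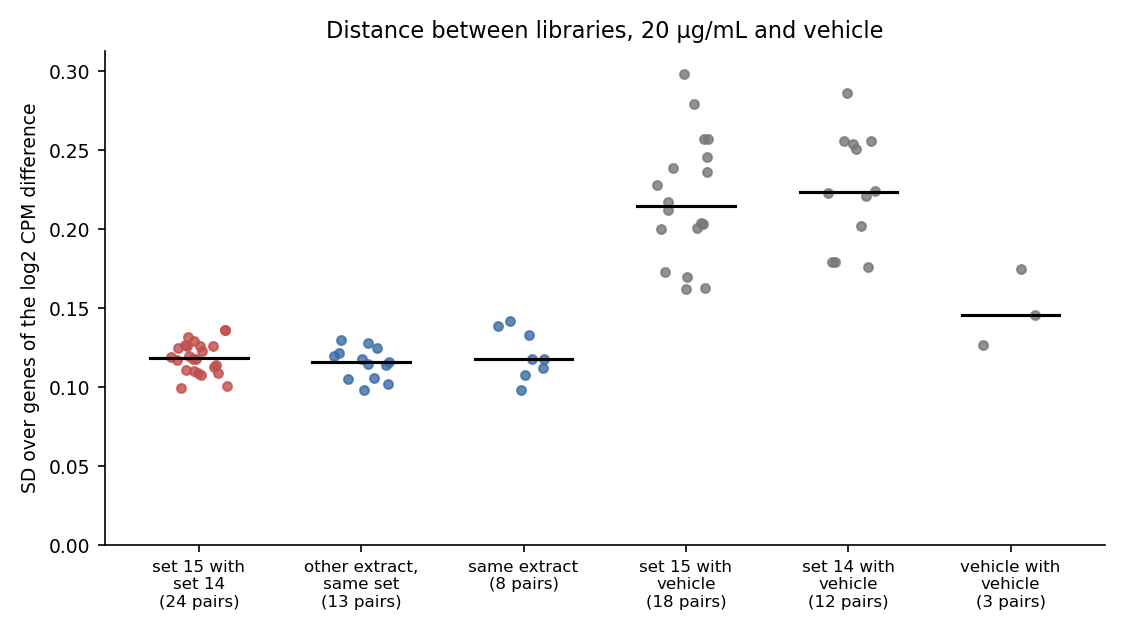
Distance between 2 libraries (y axis, SD over 11001 genes of the log2 CPM difference), 1 point per pair, with the median of each kind of pair as a black line. Pairs across sets, of different extracts within a set and of the same extract have medians of 0.119, 0.116 and 0.118, below the medians of 0.214 and 0.223 for pairs with vehicle.

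The rule that chose these libraries calls them near-inactive, but many genes passed the test against vehicle. Against the 3 vehicle libraries, edgeR called 4837 genes in set 15 at the low dose (27.7%), 2441 higher (14%) and 2396 lower (13.7%). The same comparison for set 14 called 4856 genes (27.9%), 2446 higher (14%) and 2410 lower (13.8%). Both comparisons share the vehicle libraries, and without vehicle replicate 3 they called 2973 and 3233 genes. At an unadjusted p under 0.05 there were 6552 (37.6%) and 6669 genes (38.3%). Vehicle libraries had the lower total counts given above, overlapping 1 library of set 15. Mitochondrially encoded genes took 6.34 to 7.53% of counts in set 15 and 5.15 to 6.68% in set 14, against 7.43 to 9.8% in vehicle. Genes with at least 10 counts numbered 15758 to 16303 in set 15 and 16109 to 16160 in set 14, against 15413 to 15734 in vehicle. The part of these in the counts was not tested. Vehicle also carries another kind of sample code, so extract and code cannot be told apart there.

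Genes with large differences from vehicle included several with set differences near 0 and others, CERS6-AS1 and MTND4P12, whose interval between the sets lay above 0. PGGHG, which encodes a glucosidase acting on collagen-linked sugars (GRCh38 chromosome 11, 289135 to 296107, GENCODE 29), had 134, 128 and 140 CPM in Palmul-tang and 119, 146 and 152 CPM in Sibjeondaebo-tang libraries, 126 and 130 CPM in Sagunja-tang and 121 and 132 CPM in Samul-tang libraries, and 67.2, 67.3 and 68.7 CPM in vehicle. All 10 low-dose libraries stood above all vehicle libraries, and the sets overlapped. Relative to vehicle its log2 fold change was 1.01 ± 0.06 (SE) in set 15 and 0.91 ± 0.07 in set 14 (edgeR adjusted p = 1.57e-11 and 4.77e-10), and between the sets it was 0.10 (95% interval -0.01 to 0.21). AKAP12, a scaffold that anchors protein kinase A, fell by 0.78 in set 15 and fell by 0.75 in set 14 (adjusted p = 2.15e-06 and 1.22e-05), with 7.4 to 9.43 CPM in set 15, 8.14 to 8.79 CPM in set 14 and 11.9 to 16.2 CPM in vehicle. MUC17, a membrane-bound intestinal mucin, fell by 0.77 in set 15 and fell by 0.73 in set 14 (adjusted p = 0.00055 and 0.00159), with 6.49 to 8.67 CPM, 6.98 to 8.02 CPM and 11.4 to 13.5 CPM in set 15, set 14 and vehicle. The difference between the sets was -0.03 for AKAP12 (-0.22 to 0.15) and -0.03 for MUC17 (-0.33 to 0.26). CCDC78 rose by 0.98 ± 0.10 and 1.00 ± 0.10 (adjusted p = 1.23e-07 and 2.16e-07), and ZACN, a zinc-activated ion channel, by 2.03 ± 0.49 and 1.77 ± 0.52 (adjusted p = 0.00284 and 0.0117), in set 15 and set 14. ZACN varied most within groups, from 8.77 to 16.2 CPM in set 15, 5.73 to 15.1 CPM in set 14 and 0.115 to 7.23 CPM in vehicle. PXN-AS1, an antisense gene, had log2 fold changes of 0.98 and 1.18 (adjusted p = 0.000575 and 0.000143). Another antisense gene, CERS6-AS1, fell by 0.73 and fell by 1.14 (adjusted p = 0.00708 and 0.000461). It was the one gene named here from the vehicle comparisons whose sets did not overlap, with 19.1 to 23.2 CPM in set 15, 14.4 to 18.5 CPM in set 14 and 23.2 to 46.3 CPM in vehicle. Of all genes tested, 1.24% did not overlap between the sets. Libraries were stranded, but whether counting used the strand is not given in the sources used here, so reads of an antisense gene and its partner may be mixed. MTND4P12, a nuclear pseudogene of the mitochondrial ND4 gene, fell by 0.99 and fell by 1.55 (adjusted p = 0.00335 and 0.000193) and may share reads with MT-ND4. Between the sets the difference was 0.56 for MTND4P12 (95% interval 0.05 to 1.08) and 0.41 for CERS6-AS1 (0.01 to 0.81), neither called (edgeR adjusted p = 1). It was -0.03 for CCDC78 (-0.18 to 0.13), 0.26 for ZACN (-0.44 to 0.95) and -0.20 for PXN-AS1 (-0.50 to 0.10). These genes were picked for their differences from vehicle in libraries that also enter the set comparison, so the list is a description.

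The intervals of the set comparison bound the differences that remain possible. For the 10989 genes whose average log2 CPM was at least 2 and that had one, the 95% interval lay within a 1.5-fold difference in either direction for 99.6% and within 1.1-fold for 61.8%, with a median half-width of 0.089 on the log2 scale. At an average log2 CPM of at least 5 (6033 genes), 99.9% lay within 1.5-fold. For 4150 genes with an average log2 CPM under 0, 22.5% lay within 1.5-fold and 68.9% within 2-fold, so differences of that size in many of these rare transcripts were not detectable at this depth.

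Single extracts were compared in the same way. Across sets, edgeR called 0 genes (0%) for Palmul-tang against Sagunja-tang (677 at an unadjusted p under 0.05, 3.88%), Palmul-tang against Samul-tang (416, 2.39%), Sibjeondaebo-tang against Sagunja-tang (637, 3.65%) and Sibjeondaebo-tang against Samul-tang (552, 3.17%). Within sets it called 0 (0%) for Sibjeondaebo-tang against Palmul-tang (463 at an unadjusted p under 0.05, 2.66%) and Samul-tang against Sagunja-tang (395, 2.27%). DESeq2 called 0 in each except Sibjeondaebo-tang against Sagunja-tang, where it called RN7SL2. At an average log2 CPM of at least 2, the median half-width of the 95% interval was 0.126 in each of the 4 pairs across sets, 0.113 for Sibjeondaebo-tang against Palmul-tang and 0.138 for Samul-tang against Sagunja-tang. The 6 pairs were adjusted over genes within each pair. These are bounds on single genes, and a p that misses the threshold does not show that the extracts act alike.

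The sets were also compared at the higher doses. At 100 µg/mL edgeR called 0 genes (0%), with 742 at an unadjusted p under 0.05 (4.26%) and 145 without overlap between the sets (0.832%). DESeq2 called 1 there, THRIL, a long noncoding RNA. At 500 µg/mL edgeR called 953 genes (5.47%), 421 higher in set 15 (2.42%) and 532 lower (3.05%), with 3571 at an unadjusted p under 0.05 (20.5%), and 554 genes did not overlap (3.18%). This count ran from 353 to 2175 with 1 library left out, the lowest without Samul-tang high replicate 2 and the highest without Sagunja-tang high replicate 3. A test of the set difference at low minus medium dose called 0 genes (0%), with 362 at an unadjusted p under 0.05 (2.08%) and 0 by DESeq2, which had 178.

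**Figure D2:**
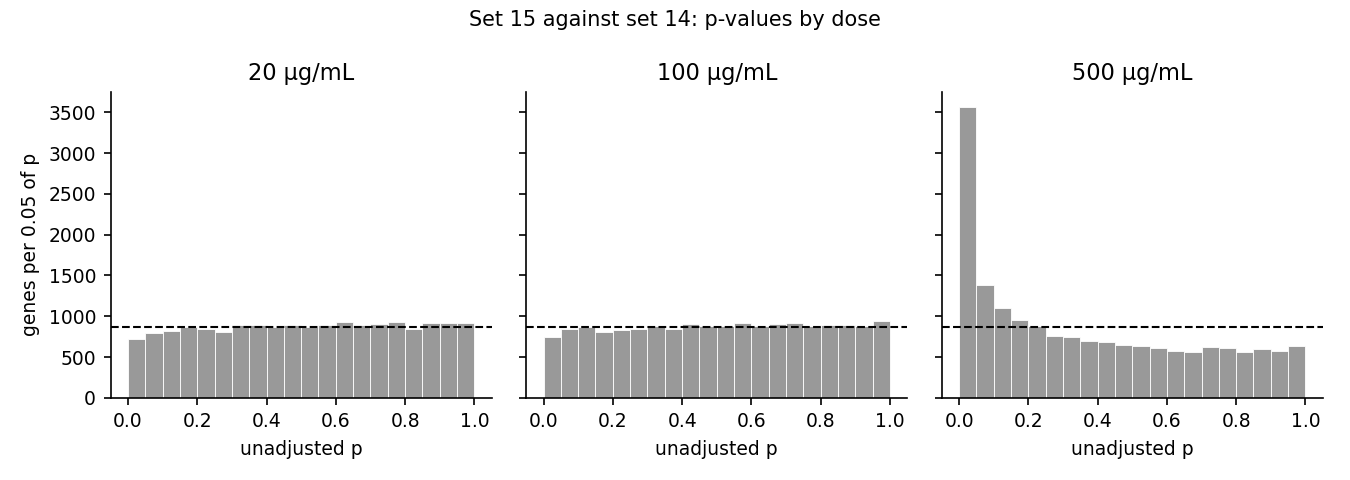
Number of genes (y axis) in each 0.05-wide bin of unadjusted edgeR p (x axis) for set 15 against set 14 at 20, 100 and 500 µg/mL, with the 871.6 genes per bin that an even spread gives as a dashed line. The lowest bin holds 727 genes at the low dose, 742 at the medium dose and 3571 at the high dose.

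Genes called between the sets at 500 µg/mL had, in the median, smaller set differences at 20 µg/mL. HMGN2P5 differed about as much at these 2 doses, but its set difference at 100 µg/mL was -0.10. AKR1B10, an aldo-keto reductase and NRF2 target (chromosome 7, 134527592 to 134541408), had 98.7, 98.2 and 94.5 CPM in Palmul-tang and 99.3, 89.7 and 89.3 CPM in Sibjeondaebo-tang libraries, against 93.6 and 101 CPM in Sagunja-tang and 101 and 99.2 CPM in Samul-tang libraries at 20 µg/mL. The sets overlapped, and vehicle had 92.3 to 105 CPM. At 500 µg/mL AKR1B10 averaged 283 ± 13.1 CPM in set 15 (SD, n = 6) and 264 ± 87.1 CPM in set 14 (n = 4). The set difference was 0.16 there (edgeR adjusted p = 0.0126), against -0.06 at 20 µg/mL (95% interval -0.14 to 0.03). These SD are over all libraries of a set, while the test measures spread within each extract and dose. Given the wide spread in set 14, 0.16 is a difference between averages over extracts and need not hold for each extract. NQO1, a quinone reductase and NRF2 target, averaged 525 ± 17.7 CPM in set 15 and 518 ± 14.9 CPM in set 14 at 20 µg/mL, and 839 ± 45.9 and 777 ± 75 CPM at 500 µg/mL, where it was not called (adjusted p = 0.0735). The long noncoding RNA NEAT1, a scaffold of paraspeckles, fell by 0.47 in set 15 relative to set 14 at 500 µg/mL (adjusted p = 0.000405). Its difference at 20 µg/mL was -0.01 (95% interval -0.17 to 0.15), with 357 to 480 CPM in set 15 and 405 to 443 CPM in set 14. PGGHG fell by 0.49 at 500 µg/mL (adjusted p = 1.09e-06) and had a difference of 0.10 at 20 µg/mL. Among genes that rose in set 15 at 500 µg/mL, HMGA1, an architectural chromatin protein, had a difference of 0.23 (adjusted p = 0.0162) there and 0.08 at 20 µg/mL. NR1D1, the clock repressor REV-ERB alpha, had 0.27 (adjusted p = 0.00664) and 0.07. The pseudogenes SBDSP1 and HMGN2P5, which can share reads with their parent genes, had 0.29 and 0.51 at 500 µg/mL (adjusted p = 0.00499 and 0.0459), and 0.07 (95% interval -0.06 to 0.19) and 0.49 (0.18 to 0.80) at 20 µg/mL. Over the 421 genes higher in set 15 at 500 µg/mL, the median set difference was 0.127 there, 0.031 at 100 µg/mL and 0.023 at 20 µg/mL, where 328 had the same sign. Over the 532 lower genes the medians were -0.235, -0.058 and -0.03, and 366 had the same sign at 20 µg/mL. Both groups of genes were picked for passing the test at 500 µg/mL. That choice alone favours larger differences at 500 µg/mL than at the other doses, so these medians are a description.

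RN7SL2 and RN7SL1 had the smallest p-values of the set comparison. They encode 7SL RNA, the RNA of the signal recognition particle that guides secreted and membrane proteins to the endoplasmic reticulum, and RNA polymerase III makes it without a poly(A) tail. They are near-identical copies, so the authors' counting could split reads between them, and each level alone is uncertain.

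RN7SL2 had 18.9, 51.9 and 17.6 CPM in Palmul-tang and 27.9, 50.6 and 31.9 CPM in Sibjeondaebo-tang libraries, against 4.12 and 2.45 CPM in Sagunja-tang and 3.79 and 21.3 CPM in Samul-tang libraries. Samul-tang replicate 3 reached into the range of set 15, so the sets overlapped. The log2 fold change was 2.36 ± 0.50 (95% interval 1.33 to 3.39, edgeR adjusted p = 1), and 3.22 without Samul-tang replicate 3. RN7SL1 had 11.5, 30.4 and 10.9 CPM in Palmul-tang and 19.4, 35.8 and 21.7 CPM in Sibjeondaebo-tang libraries, against 4.12 and 3.09 CPM in Sagunja-tang and 4.59 and 13.6 CPM in Samul-tang libraries. Its log2 fold change was 1.90 ± 0.42 (adjusted p = 1). The sum over both genes does not depend on how reads were split between these 2. It was 28.6 to 86.4 CPM in set 15, 5.54 to 34.9 CPM in set 14 and 5.74 to 14.9 CPM in vehicle. Neither gene passed the threshold between the sets. Against vehicle, RN7SL2 rose by 2.43 ± 0.58 in set 15 (adjusted p = 0.00279) and had a log2 fold change of 0.07 ± 0.73 in set 14 (adjusted p = 0.957). At 100 µg/mL RN7SL2 averaged 22.4 ± 9.72 CPM in set 15 and 6.35 ± 4.77 CPM in set 14, and at 500 µg/mL 38.7 ± 19.7 and 19.3 ± 15.3 CPM. The log2 difference was 1.96 and 1.25 at these doses (adjusted p = 1 and 0.0919). For Samul-tang against Sagunja-tang at 20 µg/mL it was 1.93 (95% interval 0.11 to 3.76), as large as some differences across sets.

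**Figure D3:**
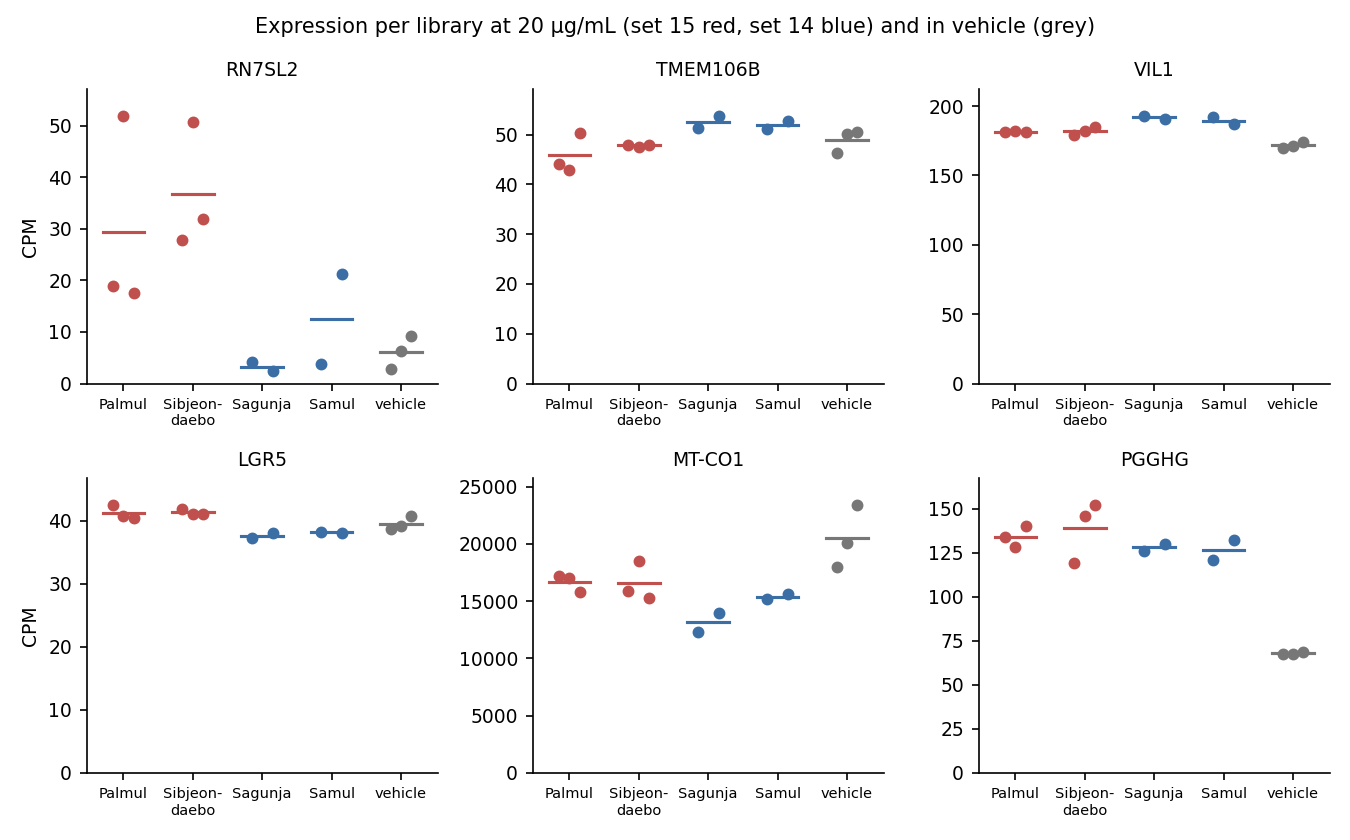
CPM (y axes, each starting at 0) of 6 genes in each low-dose library of set 15 (red) and set 14 (blue) and in vehicle (grey), 1 point per library with the mean of each extract as a line. RN7SL2 spreads from 17.6 to 51.9 CPM in set 15 and from 2.45 to 21.3 CPM in set 14, while VIL1 stays between 179 and 193 CPM in all 10 extract libraries.

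Mitochondrially encoded genes were the list with the largest median difference. These 13 genes encode subunits of the respiratory chain, are read from a few long transcripts and thus do not vary independently. All 13 had a positive log2 difference, with a median of 0.197 against 0.0011 over all genes tested. An unadjusted p under 0.05 was found for 3 of the 13, and for 4.17% of all genes tested. MT-CO1, a subunit of cytochrome c oxidase, had 17200, 17000 and 15800 CPM in Palmul-tang and 15900, 18500 and 15300 CPM in Sibjeondaebo-tang libraries, against 12300 and 14000 CPM in Sagunja-tang and 15200 and 15600 CPM in Samul-tang libraries. Sagunja-tang libraries were the lowest, and 1 of the 2 Samul-tang libraries fell inside the range of set 15. Within set 14, Samul-tang stood above Sagunja-tang in MT-CO1 by a log2 difference of 0.23 ± 0.14. The log2 difference of MT-CO1 was 0.22 ± 0.09 (edgeR adjusted p = 1), that of MT-CO3, of the same complex, 0.20 ± 0.09, and that of MT-ND2, of complex I, 0.26 ± 0.12. As a share of all counts these genes took 6.74 ± 0.433% in set 15 (SD, n = 6) and 5.97 ± 0.628% in set 14 (n = 4), against 7.43 to 9.8% in vehicle. The two-sided exact permutation p was 0.0429 and 0.107 after adjustment over the 5 library summaries, where 0.00476 is the smallest p that 210 splits can give. This test shuffles single libraries, although libraries of a set share extracts. Over means of libraries that share set and replicate number, the exact permutation p was 0.2 over 10 splits. So few splits cannot give a p under 0.05, so this second test could not have passed. Without Samul-tang replicate 2 the difference was 1.01 percentage points (adjusted p = 0.0298), and without Sagunja-tang replicate 2 it was 0.498 (adjusted p = 0.357). The share of the 10 most abundant genes was 8.64 ± 0.353% and 7.99 ± 0.533% (exact p = 0.0333, adjusted p = 0.107). Total count, genes with at least 10 counts and the share of ribosomal protein genes gave exact p-values of 0.438 to 0.795. The nuclear-encoded genes of oxidative phosphorylation had a median difference of -0.001, with 0 of 30 at an unadjusted p under 0.05, and cytosolic ribosomal protein genes -0.007, likewise with 0 of 30. SDHB, of complex II, had the smallest p of the first list (0.06 ± 0.03) and RPL5, of the large subunit, that of the second (0.06 ± 0.04).

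Lists of stress and detoxification genes had small median differences between the sets. The counts below stand against 4.17% of all genes tested at an unadjusted edgeR p under 0.05. Of 26 NRF2 targets, which the oxidative stress regulator NRF2 drives, 5 had an unadjusted p under 0.05 and were higher in set 15, and 0 were called. Of all genes tested, 2.24% had such a p and were higher in set 15. In this list 18 genes had a positive difference, and the median was 0.021. At 500 µg/mL 12 of the 26 were called higher in set 15, where 2.42% of all genes were. UGT1A6, a glucuronosyltransferase, had 48.4 to 56 CPM in set 15 and 46.8, 47.8, 47.8 and 47.2 CPM in set 14, a difference of 0.11 ± 0.04. GCLC, the catalytic subunit of glutathione synthesis, had 86.3 to 94.7 CPM in set 15 and 83.6, 83.1, 85.6 and 84.1 CPM in set 14, a difference of 0.09 ± 0.04, while vehicle had 89.6 to 106 CPM. In both genes every library of set 15 stood above every library of set 14, as in 0.528% of all genes tested. FTL, the ferritin light chain, had a difference of 0.13 ± 0.05. Heat shock genes and chaperones had a median of 0.039, with 17 of 18 above 0. In this list 4 had an unadjusted p under 0.05, all higher in set 15, and 0 were called. HSPH1 and HSPA8, cytosolic chaperones, had differences of 0.08 ± 0.03 and 0.07 ± 0.03. In the unfolded protein response list the median was 0.023, with 15 of 20 above 0. An unadjusted p under 0.05 was found for 2 of the 20, DNAJB11 and HSP90B1. They are chaperones of the endoplasmic reticulum with differences of 0.09 ± 0.03 and 0.06 ± 0.02. Among 21 ATF4 targets the median was 0.01, and CHAC1, which degrades glutathione, had 2.57 to 3.35 CPM in set 15 and 2.18 to 2.62 CPM in set 14. Hypoxia response genes had a median of 0.004, with 2 of 18 at an unadjusted p under 0.05, both lower in set 15. BNIP3, a mitophagy receptor, had 2.03 to 2.45 CPM in set 15 and 2.43 to 3.13 CPM in set 14, and PDK1, a kinase of pyruvate dehydrogenase, 27.2 to 28.9 and 28.8 to 30.7 CPM.

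Growth and differentiation genes differed little as well. DNA replication and E2F targets had a median of -0.02 with 1 of 30 at an unadjusted p under 0.05, mitosis genes 0.008 with 2 of 30, and ribosome biogenesis and MYC targets 0.015 with 1 of 26. AURKA, a mitotic kinase, had 149 to 161 CPM in set 15 and 148 to 149 CPM in set 14. E2F2, a cell cycle transcription factor, had 7.98 to 9.64 CPM and 9.26 to 10.3 CPM, and NPM1, a nucleolar protein, 1570 to 1670 and 1540 to 1580 CPM. Histone genes had the second largest median, 0.153 over the 12 tested of 28 listed. An unadjusted p under 0.05 was found for 3, and for 4.17% of all genes tested. HIST1H2AC had 11.1 to 12.2 CPM in set 15 and 9.99 to 10.8 CPM in set 14, a difference of 0.12 ± 0.05, and HIST1H2BK 5.1 to 6.52 and 4.49 to 5.16 CPM, a difference of 0.23 ± 0.08. The other, H1F0, a linker histone also made outside DNA replication, had 199 to 223 CPM in set 15 and 192 to 201 CPM in set 14, a difference of 0.09 ± 0.04. At 100 µg/mL the median of this list was 0.052 and at 500 µg/mL it was -0.01. Interferon response genes had the lowest median, -0.072, with 22 of 26 below 0 and 1 at an unadjusted p under 0.05. That gene, XAF1, had 0.0708 to 0.638 CPM in set 15 and 0.333 to 0.638 CPM in set 14.

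LGR5, a Wnt-responsive stem cell receptor, had 42.5, 40.7 and 40.5 CPM in Palmul-tang and 41.8, 41.1 and 41.1 CPM in Sibjeondaebo-tang libraries, against 37.2 and 38.1 CPM in Sagunja-tang and 38.2 and 38.1 CPM in Samul-tang libraries. Every library of set 15 stood above every library of set 14, by a log2 difference of 0.12 ± 0.04 (edgeR adjusted p = 1). Of all genes tested, 0.528% stood above in this way, and LGR5 was named for the smallest p of its list. At 100 µg/mL LGR5 averaged 38.9 ± 1.72 and 39 ± 1.41 CPM, and the difference was -0.00. Wnt and beta-catenin targets as a list had a median of 0.022, with 1 of 18, LGR5 itself, at an unadjusted p under 0.05. VIL1, the actin-bundling villin of the brush border, had 181, 182 and 181 CPM in Palmul-tang and 179, 182 and 185 CPM in Sibjeondaebo-tang libraries, against 193 and 191 CPM in Sagunja-tang and 192 and 187 CPM in Samul-tang libraries. The sets did not overlap, as in 0.717% of all genes tested that were lower in set 15, with a log2 difference of -0.07 ± 0.02 (edgeR adjusted p = 1). Goblet and secretory cell genes had a median of -0.038 with 1 of 19 at an unadjusted p under 0.05, the trefoil factor TFF3 (4.65 to 5.53 CPM in set 15, 5.71 to 6.52 CPM in set 14). Absorptive enterocyte genes had a median of 0.011, with 3 of 17 at an unadjusted p under 0.05, against 4.17% of all genes tested. Of these 3, VIL1 was lower in set 15 and the other 2, CA4 and CDX2, were higher. Their log2 differences were 0.92 ± 0.40 and 0.18 ± 0.08, and CA4 was barely expressed (average log2 CPM -2.18).

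**Figure D4:**
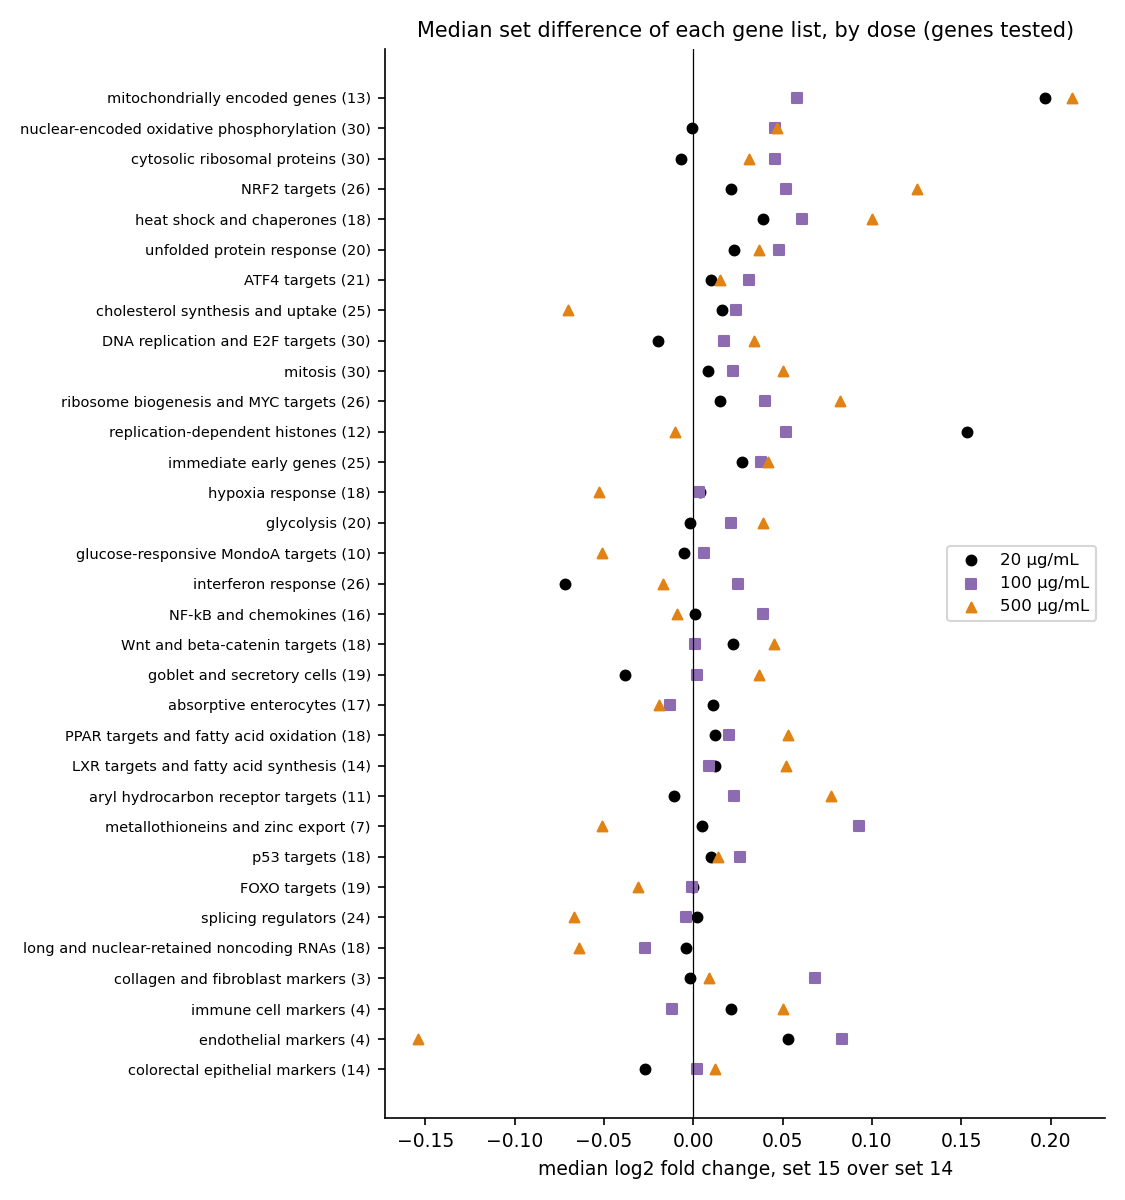
Median log2 fold change of set 15 over set 14 (x axis) for each of 33 gene lists (rows, genes tested in parentheses) at 20, 100 and 500 µg/mL. At 20 µg/mL the medians lie between -0.072 for interferon response genes and 0.197 for mitochondrially encoded genes.

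Small set differences at 20 µg/mL recurred at 100 µg/mL, in libraries of the same code sets and formulas. Across 11001 genes whose average log2 CPM was at least 2, the set differences at the 2 doses had a Pearson correlation of 0.429 and a Spearman correlation of 0.318, and without RN7SL1 and RN7SL2 0.307 and 0.318. Over all 17432 genes tested the correlations were lower, 0.118 (Pearson) and 0.153 (Spearman). Genes are not independent replicates, and the points share normalization and code set, so this is a description. With 1 library left out the Pearson correlation ran from 0.324 to 0.47. An unadjusted p under 0.05 at both doses was found for 65 of these genes, of which 64 had the same sign, and for 80 of all 17432 genes, of which 74 had the same sign. The count of 65 became 30 without Sagunja-tang medium replicate 2, 35 without Samul-tang low replicate 2 and 38 without Samul-tang medium replicate 2. The correlation of the low-dose set difference with gene length was -0.13 and with GC content 0.041 (Spearman), and with trends on both removed the Pearson correlation between doses was 0.403.

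By low-dose p the leading genes of the 74, after RN7SL2 and RN7SL1, were TMEM106B, STEAP2, ANKRD10-IT1, VIL1, RGCC and SKIL, named after their values were seen. TMEM106B, a lysosomal membrane protein, had 44.2, 42.9 and 50.4 CPM in Palmul-tang and 47.9, 47.6 and 48 CPM in Sibjeondaebo-tang libraries, against 51.3 and 53.8 CPM in Sagunja-tang and 51.2 and 52.7 CPM in Samul-tang libraries. The sets did not overlap, as in 1.24% of all genes tested. The log2 difference of TMEM106B was -0.16 ± 0.04 at 20 µg/mL (edgeR adjusted p = 1), -0.12 at 100 µg/mL and -0.12 at 500 µg/mL (adjusted p = 0.0804). STEAP2, a metalloreductase, had -0.19, -0.12 and -0.26 at 20, 100 and 500 µg/mL, the last of these called (adjusted p = 0.00496). ANKRD10-IT1, a transcript within an intron of ANKRD10 whose reads may include unspliced host RNA, had -0.20, -0.19 and -0.47, called at 500 µg/mL (adjusted p = 6.99e-06). SKIL, a repressor of SMAD signalling, had -0.09, -0.12 and -0.17, also called at 500 µg/mL (adjusted p = 0.000399). VIL1 had -0.07, -0.05 and -0.06, and RGCC, a cell cycle regulator, 0.22, 0.15 and 0.08, neither called at any dose.

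**Figure D5:**
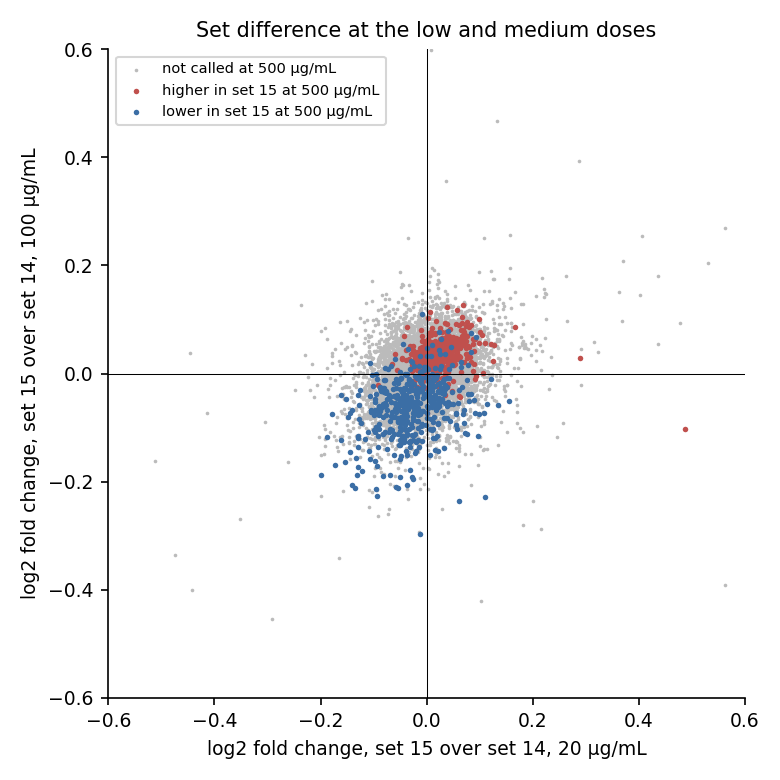
Log2 fold change of set 15 over set 14 at 20 µg/mL (x axis) and at 100 µg/mL (y axis) for 10997 genes whose average log2 CPM was at least 2, coloured by the call at 500 µg/mL, with 4 genes outside the axes of ±0.6. Over all 421 genes called higher at 500 µg/mL, drawn or not, the medians are 0.023 and 0.031, and over all 532 called lower -0.03 and -0.058.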

How the data were processed

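RNA sequencing of HT29 cells was used: 10 low-dose libraries, with 20 at the other doses and 3 of vehicle for scale. The labels' protocols describe a directional mRNA kit and paired reads of 100 bp. Tools named in the submitters' processing notes are FastQC 0.11.9, Trim Galore 0.6.5, STAR 2.7.3a and RSEM 1.3.3, with hg38, and the authors deposited expected counts per gene. The annotation release is not given in the sources used here. Of the deposited values 9.45% were not whole, and they were rounded. The table has 273 columns, of which 240 were not used.

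Of 60675 genes, 17432 were kept by filterByExpr at a minimum count of 10. The test was that of edgeR 4.0.16 under R 4.3.3 (TMM, 1 coefficient for each extract and dose over all 33 libraries, quasi-likelihood F tests, Benjamini-Hochberg adjustment, threshold 0.05). The fit had 20 residual degrees of freedom, 7 prior ones, and the biological coefficient of variation was 0.0489. CPM use TMM library sizes. The set comparison is the mean of both extracts of set 15 minus that of set 14. Errors are SE of log2 fold changes, the absolute log2 fold change divided by the square root of F, or SD of CPM. Positions are from GENCODE 29 (57055 genes found). Distances used log2 CPM with a prior count of 2.

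The libraries, gene lists and tests were chosen with earlier results of these data known. Named genes follow a rule: the 4 members with the smallest p of the set comparison in every list, and for other comparisons up to 4 rises and 4 falls by size among called genes without overlap, limited to standard names and mean log2 CPM from 2 upward. RN7SL1, RN7SL2, AKR1B10, NQO1, TMEM106B, STEAP2, ANKRD10-IT1, SKIL, RGCC and RBM3 were added after their values were seen, as were the distances and the comparisons at 500 µg/mL and with vehicle. Some members of the rule are left out for length.

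In simulated counts for the set comparison, with 200 of 17432 genes changed, the test found 4, 60, 62 and 94% of those given a log2 change of 0.1, 0.25, 0.5 and 1, and 8 of its 118 calls were false. These counts were drawn from the fitted model at each gene's own spread. With 200 genes changed, the adjusted threshold is also easier to pass than where few genes differ. The percentages therefore do not give the power of the test on the real counts. Alternatives were DESeq2 1.42.0, its size factors, no filter, only the groups compared, thinning to the lowest depth, removal of GC and length trends, the replicate number as a block, sums by set and number, and leaving out each library. The sequences of some genes are not reported here.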

Additional observations from a re-analysis of the deposited data

Results flagged for a closer look

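Of 136 groups of 4 or 6 low-dose libraries examined, 6 held a library far from the others, where chance gives about 1 in 20 groups. Within set 14, Samul-tang replicate 3 had 21.3 CPM of RN7SL2, against 2.45 to 4.12 CPM in the other 3 libraries, and 13.6 CPM of RN7SL1, against 3.09 to 4.59 CPM. The 2 genes are near-identical in sequence, so they count as 1 observation. Also in set 14, Sagunja-tang replicate 3 had 0.333 CPM of XAF1, an interferon-induced gene, against 0.615 to 0.638 CPM in the others, and Sagunja-tang replicate 2 had 37.2 CPM of LGR5, against 38.1 to 38.2 CPM. Within set 15, Palmul-tang replicate 3 had the lowest total count, 34800000, against 40400000 to 42600000, and Sibjeondaebo-tang replicate 2 had the largest share of counts in the 10 most abundant genes, 9.3%, against 8.29 to 8.65%.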

How the results depend on the processing

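The set comparison at the low dose called 0 genes with DESeq2, with its size factors in edgeR, with only the groups compared, with all libraries thinned, with GC and length trends removed and with each library left out. It called 1 gene, RBM3 (-0.20, adjusted p = 0.0133), with those trends removed and a replicate block, and 3 (ZBTB45P2, AC093484.3 and ENSG00000282031) over sums by set and number. With no filter on low counts the prior degrees of freedom became infinite, so that no gene kept a spread of its own. Calls then appeared in every low-dose comparison. For set 15 against set 14 there were 120 genes, 118 of them among the genes tested with the filter. Palmul-tang had 94 against Sagunja-tang and 54 against Samul-tang. Sibjeondaebo-tang had 110 against Sagunja-tang, 102 against Samul-tang and 90 against Palmul-tang. Samul-tang against Sagunja-tang had 66, the sets at the medium dose 94, and low minus medium dose 58. With only the groups compared, 4, 8, 6 and 230 genes were called for Sibjeondaebo-tang against Sagunja-tang, Sibjeondaebo-tang against Samul-tang, Samul-tang against Sagunja-tang and the sets at the high dose. DESeq2 called 1 for Sibjeondaebo-tang against Sagunja-tang (RN7SL2) and 1 at the medium dose (THRIL). The cause of these was not tested. With 1 library left out, counts ran from 0 to 1 for Palmul-tang against Sagunja-tang (CBWD6), from 0 to 1 for Sibjeondaebo-tang against Sagunja-tang (ENSG00000282031), from 353 to 2175 for the sets at the high dose, from 2973 to 4729 for set 15 against vehicle and from 3233 to 4714 for set 14 against vehicle. Where that left 1 library in a group, its spread was taken from the other groups.

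The labels do not say whether the replicate numbers pair the samples. Same-numbered libraries of different groups correlated at -0.293 to 0.115 over 13 pairs, and 3 of 10 correlated best with their own number. Differently numbered libraries of different groups correlated at -0.179 to 0.293 over 24 pairs. With so few libraries per group, these correlations cannot decide whether the replicate number pairs the libraries. With the number as a block, the low-dose set comparison called 0 genes and the high-dose one 959, and genes with an unadjusted p under 0.05 at both the low and medium dose numbered 99, against 65. Library summaries with 1 library left out ran from 0.498 to 1.01 percentage points for the mitochondrial share, from 0.413 to 0.84 for the 10 most abundant genes, from -1340000 to 227000 for total count and from -75.2 to 33.8 for genes detected. Mean distance across minus within sets ran from -0.00348 to 0.00458, and was -0.00165 over all genes and -0.0022 without RN7SL1 and RN7SL2. Of the named genes, those near 0 changed sign: NEAT1 (0.042 with the block, 0.023 with GC and length trends removed, 0.084 with both, -0.052 to 0.05 with 1 library left out), CCDC78 (0.004 with the block, 0.008 with both, -0.076 to 0.003), MUC17 (0.017 after thinning, -0.082 to 0.025), NQO1 (-0.003 to 0.046) and AKAP12 (-0.066 to 0.002). Depth limits the comparison for genes with an average log2 CPM under 0.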

Other observations

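Several gene groups beyond those described above had medians close to the 0.0011 of all genes in the low-dose set comparison. The counts below stand against 4.17% of all genes tested at an unadjusted edgeR p under 0.05. Genes of cholesterol synthesis and uptake had a median log2 difference of 0.016, with 1 of 25 at an unadjusted edgeR p under 0.05: NSDHL, a sterol dehydrogenase, with 91 to 100 CPM in set 15 and 87.1 to 91.2 CPM in set 14. Genes of glycolysis had -0.002 with 0 of 20, and glucose-responsive MondoA targets -0.005 with 0 of 10. Immediate early genes had 0.027 with 2 of 25, EGR2 and IER3, the second with 58.7 to 63.7 CPM in set 15 and 55.2 to 58.5 CPM in set 14. Genes of NF-kB and chemokines had 0.001 with 2 of 16, NFKB2 and NFKBIA. Targets of p53 had 0.01 with 1 of 18, TIGAR, a regulator of glycolysis, with 18.8 to 21.5 CPM in set 15 and 17.9 to 19.4 CPM in set 14. Splicing regulators had 0.002 with 1 of 24, SRSF4, with 84.2 to 89.8 CPM in set 15 and 88.6 to 95.3 CPM in set 14, and long nuclear-retained noncoding RNAs -0.004 with 0 of 18. PPAR targets and fatty acid oxidation had 0.012 with 1 of 18 (ACSL3), LXR targets and fatty acid synthesis 0.012 with 0 of 14, aryl hydrocarbon receptor targets -0.011 with 1 of 11 (UGT1A6), metallothioneins and zinc export 0.005 with 0 of 7, and FOXO targets 0 with 1 of 19 (BNIP3). In edgeR 0 genes of these lists passed the adjusted threshold.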
